A study of Saccharomyces cerevisiae and Saccharomyces paradoxus with 173 samples.

Results

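The data describe the cell cycle of YPS3395, the only strain of the series labelled as Saccharomyces paradoxus, a wild relative of the baker's yeast S. cerevisiae. Its samples were taken by strain name, and there were 18 of them, while the other 155 samples of the series came from 9 natural S. cerevisiae strains. Per the labels' protocols, 1 culture of each strain was grown in synthetic dextrose minimal medium (SD) at 30 °C and arrested in late G1 with 4 μM of the mating pheromone alpha factor for about 75 min. The pheromone was then washed out, and the culture was divided over 18 flasks in SD at 18 °C, a temperature that slows the cycle. Strain name and time are what the labels give for each sample. RNA of each YPS3395 sample was set against RNA of unsynchronised S. cerevisiae YPS183 grown in the rich medium YPD, on 2-colour spotted oligonucleotide arrays. The values of 6172 genes were treated as log2 ratios of sample over reference. Their base and direction are not given. The sampled times were 0, 24, 48, 63, 87, 111, 135, 152, 176, 194, 218, 227, 251, 260, 284, 301, 325 and 345 min after release. All 9 S. cerevisiae strains, treated in the same way, have 12 of these times (0, 24, 48, 135, 176, 218, 251, 260, 284, 301, 325 and 345 min), and curves were compared at those. Array prints were not uniform: YPS183, YPS2073, YPS3060 and YPS3137 have samples on older prints. No older print is known for YPS3395 or for the other strains.

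Budding yeast commits to division in late G1, when the transcription factors SBF and MBF switch on the G1 cyclins and the genes of DNA synthesis. Histone genes follow in S phase, the mitotic cyclins and their cluster before mitosis, and the genes of daughter separation at mitotic exit. Alpha factor, made by cells of the opposite mating type, holds MATa cells before that commitment and switches on mating genes through the factor Ste12. When pheromone is removed, cells enter the cycle together, lose the mating transcripts and run through these waves in order.

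There was a single YPS3395 culture, so p-values within the strain rest on the scatter of its samples around a smooth curve and do not cover the spread between cultures. The number of arrays limits precision: 17 samples combine 2 arrays of opposite dye order, and the 218 min sample rests on 1 array. The 0 and 63 min samples had the narrowest spread of log2 ratios over genes, with SDs of 0.546 and 0.515, against 0.665 at 48 min and 0.714 to 0.934 at the other times. At 0 min 1 of 9 S. cerevisiae strains had a narrower spread. The 218 min sample correlated with the median of the other YPS3395 samples at r = 0.77 across genes, and only the 0 min sample was lower, at 0.76. Once each gene was centred on its mean, 218 min resembled 251 min (r = 0.447 across genes) rather than its neighbour 227 min (r = -0.117).

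Genes specific to a-cells, the mating type that responds to alpha factor, were checked first. Of 6 measured a-cell genes, MFA2 (YNL145W), which encodes the secreted pheromone a-factor, was the one that varied, against 0.859% of all genes. Its log2 ratio was 2.44 at 0 min and 1.80 at 24 min, and its lowest value was -1.36 at 260 min. The median course of the 6 genes was highest at 0 min, at 0.962 above their own means, and the S. cerevisiae mean was likewise highest at 0 min, at 1.51. Of the alpha-cell markers only MF(ALPHA)1, the alpha factor precursor, was measured, and its centred values ran from -0.701 at 176 min to 0.29 at 87 min with no test passed. A ratio to another strain's RNA cannot show that a transcript is absent.

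Over all genes, 53 of 6172 varied with time in YPS3395 (0.859%), judged by limma's moderated F-test on a spline with 5 degrees of freedom, a Benjamini-Hochberg adjusted p under 0.05 and a fitted range of at least 1 log2 unit. The median fitted range was 2.15 among these 53 and 0.45 over all genes. By their fitted peaks, 18 of the 53 were highest at 0 min, 5 at 24 to 63 min, 11 at 87 to 135 min, 3 at 152 to 218 min and 16 at 227 to 345 min. Over all 6172 genes the counts in these windows were 1310, 557, 749, 1145 and 2411. The highest sample lay at the fitted peak or 1 sample from it in 44 of them. When each time was left out in turn, 15 genes were called in all 18 fits and 32 kept their peak window in all of them. The 15 were UTH1, AGA1, DDR48, YIL082W-A, NCW1, MIP6, TUB2, GLT1, SUR7, RPS18A, ZRT1, YHR214WA, HPF1, YAR068W and DPM1. The curves of the 53 correlated with the S. cerevisiae mean curve over the 12 shared times with a median r of 0.481, and over all genes the median was 0.0597. In 26 of the 53 that r was above 0.5, and in 8 it was below 0.

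**Figure D1:**
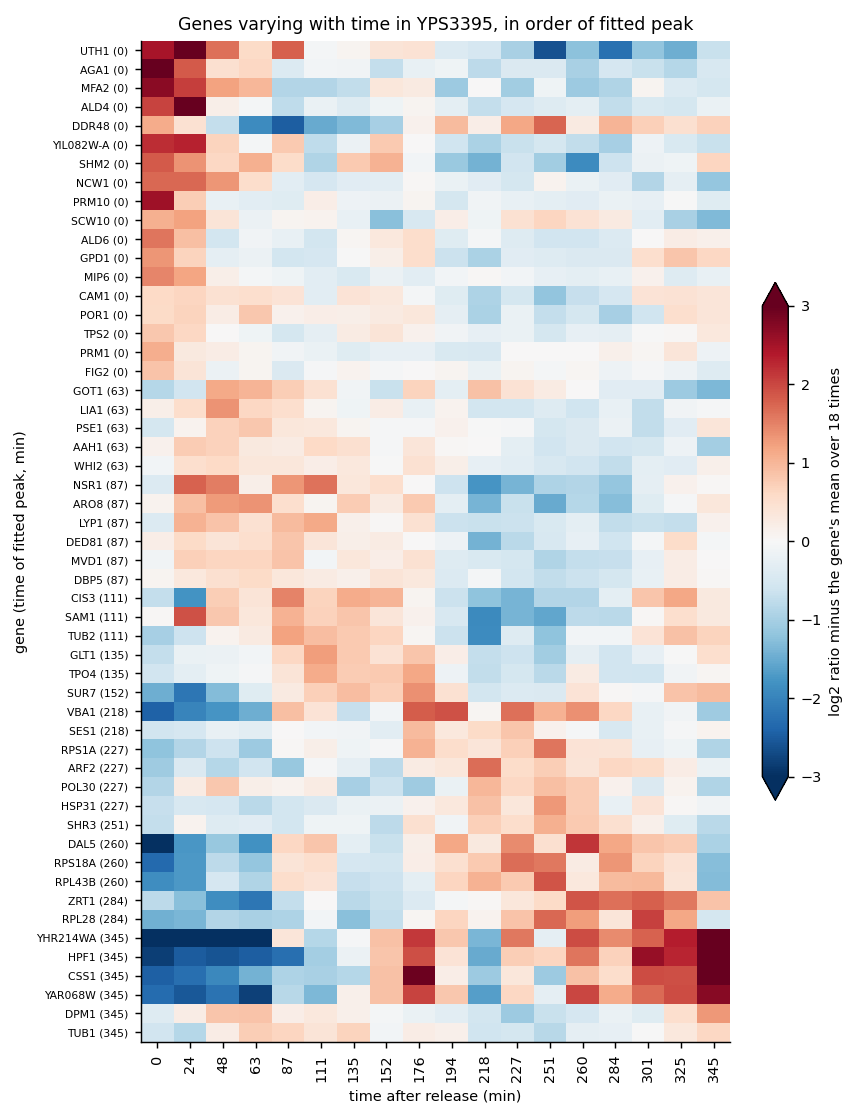
The 53 genes that varied with time in YPS3395, 1 row each, ordered by the time of the fitted peak given in brackets, over the 18 sampled times after release (columns, min). Colour is the log2 ratio minus the gene's mean over the 18 times, red above and blue below, capped at 3 on either side. Fitted peaks lie at 0 min in 18 genes and at 227 min or later in 16. Over all 6172 genes these counts are 1310 and 2411.

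Mating genes were read for the fall after release. The direction of the ratios was itself taken from AGA1 at 0 min, so the sign of its change is not a separate result. AGA1 (YNR044W), which anchors the mating agglutinin to the cell wall, was at 3.05 at 0 min, 0.98 at 24 min and between -1.83 and -0.232 from 48 min on. Its 0 min sample stood above all later ones, the fitted range was 4.33 (limma adjusted p = 2.7e-05) and the call held in 18 of 18 fits with a time left out. Its curve followed the S. cerevisiae mean closely, with r = 0.956 over 12 times.

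With AGA1, 5 of the 25 measured pheromone-response genes varied (0.859% of all genes did), and the other 4 too had the fitted peak at 0 min. PRM10 (YJL108C), a pheromone-regulated membrane protein, was at 3.22 at 0 min and 1.40 at 24 min, and from 48 min on it lay between 0.142 and 0.867. PRM1, which acts in the fusion of mating cells, was at 0.935 at 0 min against a median of -0.162 over the 18 samples. FIG2, an adhesin of mating cells, was at 0.791 against a median of -0.104, and SCW10, a wall glucanase of mating, was at 0.947 at 0 min and highest at 24 min, at 1.10. The first sample or pair of samples was thus high in each of the 4, with limma adjusted p-values of 0.00339 for PRM10, 0.016 for PRM1, 0.0449 for FIG2 and, for SCW10, p = 0.0167. The call of FIG2 held in 3 of 18 fits with a time left out and the other 3 in 17.

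FUS1, a fusion protein that is a common reporter of pheromone signalling, did not pass: it ran from -0.154 to 0.299 with a fitted range of 0.262 (limma adjusted p = 0.813). Across the 25 genes the median course was highest at 0 min, at 0.335 in YPS3395 and 0.639 in the S. cerevisiae mean. The width of that median course, 0.52, was below that of each of the 9 S. cerevisiae strains, which ran from 0.634 to 1.82. The narrow spread of all genes in the 0 min sample goes with this lower value, and its part in it was not tested.

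Several metabolic and wall genes had the fitted peak at 0 min, although the highest sample of UTH1, ALD4 and YIL082W-A was at 24 min. UTH1 (YKR042W), a SUN-family protein of the cell wall and mitochondria, was at 2.28 at 0 min and 3.79 at 24 min and fell to -2.80 at 251 min, a fitted range of 5.26 (limma adjusted p = 0.00394). ALD4, the mitochondrial aldehyde dehydrogenase, was at 2.31 and 3.60 at 0 and 24 min and between -0.482 and 0.451 afterwards. ALD6, the cytosolic form, fell from 1.65 at 0 min, with a fitted range of 2.15 (limma adjusted p = 0.0152). The call of ALD4 held in 7 of 18 fits with a time left out and that of ALD6 in 17. NCW1, a wall protein, was at 1.18 at 0 min and -1.70 at 345 min. YIL082W-A, a Ty retrotransposon gene with many near-identical copies, was high at 0 and 24 min (2.84 and 2.94) against a median of 0.309.

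Stress genes added 2 members to this group of 18. GPD1, which makes glycerol 3-phosphate in osmotic stress, was at 2.02 at 0 min and 1.37 at 24 min, lowest at 218 min with -0.242, and back at 1.54 at 325 min. TPS2, the trehalose phosphatase, was at 0.982 at 0 min and had a median of 0.119. They were the 2 of 22 measured stress and storage genes that varied, and 9 of the 22 had an unadjusted p under 0.05, against 12.9% of all genes. DDR48, a stress-responsive protein, had its fitted peak at 0 min but was high at both ends: 2.86 at 0 min, a low of -0.73 at 87 min and 3.50 at 251 min (fitted range 3.43, limma adjusted p = 0.00134). Its low samples were those from 63 to 152 min.

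Entry into the cycle was read from the G1 cyclin and replication genes. CLN2 (YPL256C), a G1 cyclin that drives the commitment to division, was at -0.495 at 0 min, 0.573 at 48 min, -0.506 at 152 min and 0.693 at 218 min. The 2 highs stood on either side of a low at 135 to 152 min. CLN2 passed the limma adjusted p (0.0449), but its fitted range of 0.95 was below 1, so it is not among the 53. POL30 (YBR088C), the sliding clamp of the replication fork, varied with a fitted range of 1.71 and a fitted peak at 227 min, in the last window (limma adjusted p = 0.0357). It was at -0.0103 at 0 min, 1.68 at 48 min, -0.195 at 176 min, 1.87 at 218 min, 1.78 at 251 min and -0.0296 at 345 min.

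POL30 thus had a high before and a high after the same gap, and its call held in 9 of 18 fits with a time left out. The later high of both genes falls on the sample with 1 array. Without 218 min the later high moved to 251 min, where CLN2 was at 0.274 and POL30 at 1.78. POL30 was the 1 of 33 measured replication genes that varied, and 0 of 22 G1/S budding genes did, against 0.859% of all genes. At an unadjusted p under 0.05 the counts were 6 of 33 and 10 of 22, against 12.9% of all genes. With the scatter shared by 10 strains they were 1 and 2, against 313 of all 6172 genes, and the G1/S genes were CLB5 and GAS1.

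The median course of the G1/S budding list was highest at 48 min, at 0.303, and lowest at 152 min, at -0.124. The replication list was highest at 48 min too, at 0.118, and lowest at 176 min, at -0.158. RNR1, the large subunit of ribonucleotide reductase and a marker of this wave in S. cerevisiae, was at 0.102 and 0.13 at 48 and 63 min and between -2.14 and -0.37 at all other times. Both highest samples thus lie together, but the limma adjusted p was 0.498. CLB5, an S-phase cyclin, was at 1.17 at 111 min, 0.395 at 194 min and 1.48 at 218 min.

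Histone genes had an early and a late high, with no test made of the repeat. The early high was sought up to 135 min and the later one from 194 min. Any curve therefore gives a high, a low and a high. HTA1 (YDR225W), encoding histone H2A, was at 0.571 at 0 min, 3.97 at 87 min, 0.485 at 194 min, 3.40 at 251 min, 3.31 at 325 min and 0.569 at 345 min. All 8 core histone genes had their highest sample of the first 135 min at 87 min, between 1.58 for HTB1 and 3.97 for HTA1. All 8 had their lowest sample between the 2 highs at 176 or 194 min, between -0.63 and 0.485. The later high fell at 251 min in 5 of the 8, at 325 min in 2 and at 260 min in HHT2. The spacing of the highs ran from 164 to 238 min.

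None of the 10 measured histone genes passed the adjusted test (0 of 10), although 9 had an unadjusted p under 0.05 and their median fitted range was 3.03 against 0.45 over all genes. With the scatter shared by 10 strains 6 passed, after quantile normalization 6, and with robust limma 2. Over all 6172 genes 313, 157 and 71 passed in these settings, and 53 in the main test. An unadjusted p under 0.05 was found in 12.9% of all genes. The fitted peak of HTA1 stood at 284 min while its highest sample was at 87 min. The median histone course reached 1.30 at 87 min and 1.23 at 251 min in YPS3395, with lows of -1.59 at 24 min and -1.17 at 194 min. In the S. cerevisiae mean, with 9 strains at 24, 135 and 251 min, it was at -1.05, 0.699 and 0.412.

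The S. cerevisiae mean is not aligned between strains, so each strain was also read alone. The histone course spanned 2.89 in YPS3395 and between 2.19 and 3.76 in the 9 S. cerevisiae strains, 6 of them below YPS3395. In YPS2055 and YPS2066 the histone course was highest at 87 min as in YPS3395, and in YPS183 and YPS2079 at 111 min. The other strains differed: it was highest at 48 min in YPS3060, 301 min in YPS2073 and 325 min in YPS3137. In YPS2067 it was highest at 135 min and in YPS2060 at 284 min. YPS2067 has no sample at 87 or 111 min and YPS2060 none at 111 min. The low was sought from 152 to 227 min only, and fell at 194 min in YPS3395 and at 194, 218 or 227 min in the 9 strains. The later high was sought from 218 min on. It fell at 251 min in YPS3395, at 260 min in YPS3060, at 284 min in YPS2060 and at 301 min or later in the other 7. Single samples of single cultures give these times, and no test was made of them.

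**Figure D2:**
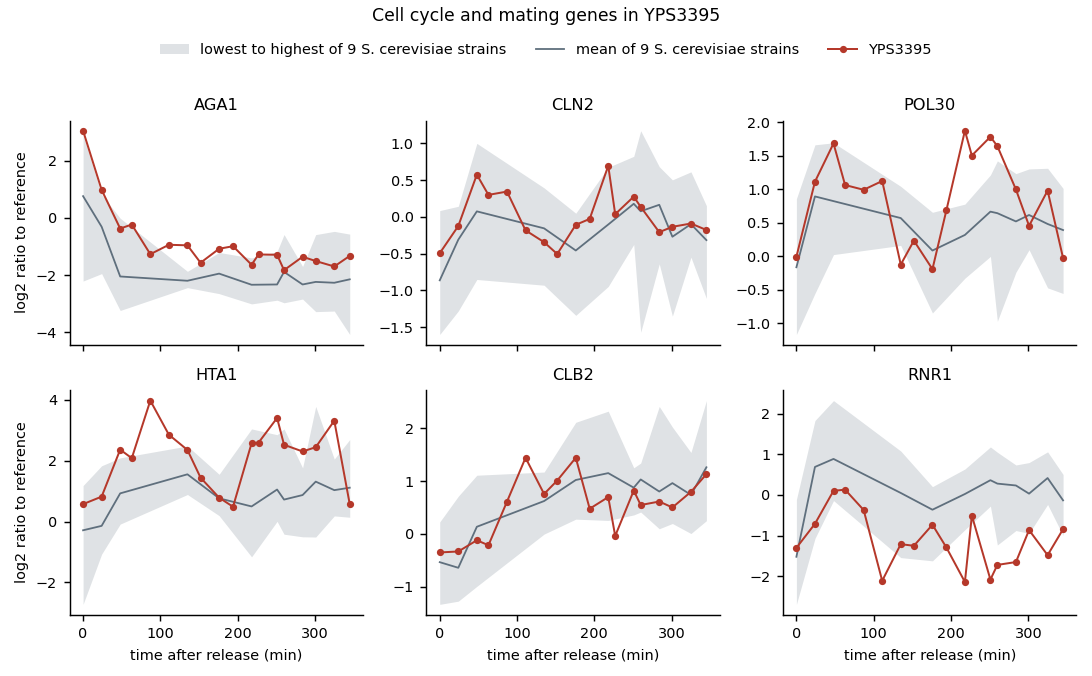
Log2 ratios of 6 mating and cell cycle genes against time after release (min) in YPS3395 (red, 18 samples), with the mean of the 9 S. cerevisiae strains (grey line) and their lowest to highest value (grey band) at the 12 shared times. AGA1 falls from 3.05, CLN2 and POL30 have highs at 48 and 218 min, HTA1 at 87 and 251 min, and CLB2 reaches 1.44 at 111 min.

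The mitotic wave was shallow. CLB2 (YPR119W), the main mitotic cyclin, was at -0.349 at 0 min, 1.44 at both 111 and 176 min, -0.0376 at 227 min and 1.13 at 345 min. The early samples were low and the middle ones high, but the fitted range of 1.66 had a limma adjusted p of 0.0664 and did not pass. Its curve had r = 0.875 with the S. cerevisiae mean. SUR7 (YML052W), a membrane protein of eisosomes in the CLB2 cluster, passed with a fitted range of 3.06 (limma adjusted p = 0.0044, called in 18 of 18 fits). It was at -1.78 at 24 min and 1.76 at 176 min, with values above 1 from 111 to 176 min and again at 325 and 345 min.

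SUR7 was the 1 of 22 measured G2/M genes that varied, against 0.859% of all genes, and 9 had an unadjusted p under 0.05, against 12.9%. The median course of the 22 was lowest at 24 min (-0.228) and highest at 152 min (0.206). Its width of 0.434 was below that of every S. cerevisiae strain, where it ran from 0.513 to 1.15. SWI5, the factor that switches on M/G1 genes, ran from -0.234 at 0 min to 0.331 at 176 min, and SIC1, the inhibitor of S-phase cyclin kinase that it controls, from -0.71 to 0.573. Neither passed, with fitted ranges of 0.448 and 0.602. CTS1, the chitinase of daughter separation, was low throughout, from -3.86 to -1.22, with a fitted range of 0.68.

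Among 19 daughter-separation genes CIS3 (YJL158C), a wall mannoprotein, varied, against 0.859% of all genes. It was at -2.96 at 24 min, 0.302 at 87 min, -2.56 at 227 min and -0.0141 at 325 min, again with 2 highs (fitted range 2.59, limma adjusted p = 0.0291). The call of CIS3 held in 8 of 18 fits with a time left out. It did not hold with scatter shared by 10 strains (limma adjusted p = 0.213). None of the 10 genes of the early cell cycle box (0 of 10), and none of the 22 spindle genes of S phase and G2 (0 of 22), passed in limma. At an unadjusted p under 0.05 there was 1 in each list, and with scatter shared by 10 strains or after quantile normalization 0 in each.

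Of the tubulin genes TUB2 had its fitted peak at 111 min and TUB1 at 345 min. TUB2 (YFL037W), the only beta tubulin of yeast, was at -1.09 at 0 min, 1.11 at 87 min, -1.97 at 218 min and 0.789 at 325 min, with a fitted range of 2.21 (limma adjusted p = 0.00782, called in 18 of 18 fits). The alpha tubulin TUB1 was at -1.53 at 24 min, 0.0721 at 63 min, -1.51 at 251 min and -0.0398 at 345 min (limma adjusted p = 0.0449). Both were low at 0 and 24 min and again at 218 to 251 min. The TUB1 call held in 6 of 18 fits with a time left out.

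NSR1, SAM1, ARO8 and GLT1, with the fitted peak at 87 to 135 min, were grouped here after their values were seen. In the lists 1 of 22 ribosome biogenesis and 0 of 31 amino acid synthesis genes varied, against 0.859% of all genes. NSR1, a nucleolar protein of ribosome assembly, was at 0.553 at 0 min, 2.73 at 24 min and 2.60 at 111 min, and lowest at 218 min with -0.807 (fitted range 2.68, limma adjusted p = 0.0246). SAM1, which makes S-adenosylmethionine, was at 2.46 at 24 min and -1.36 at 218 min (fitted range 2.46, limma adjusted p = 0.016). ARO8, an aromatic aminotransferase, was at 0.84 at 63 min and -2.02 at 251 min. All 3 were high early and low at 218 to 251 min. GLT1, glutamate synthase, was at 1.84 at 111 min and -0.443 at 251 min, and its call held in 18 of 18 fits with a time left out.

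The 5 genes that peaked at 63 min in the fit were GOT1, LIA1, PSE1, AAH1 and WHI2. GOT1, which acts in traffic from the endoplasmic reticulum to the Golgi, was at -1.44 at 0 min, 0.54 at 48 min and -1.95 at 345 min, with the largest fitted range of the 5 (2.29, limma adjusted p = 0.0152). LIA1, which modifies the translation factor eIF5A, was at 1.21 at 48 min and at 0.489 or below at every other time. The other 3 had fitted ranges of 1.27 for PSE1, a nuclear import receptor, 1.19 for AAH1, adenine deaminase, and 1.09 for WHI2, a stress-response regulator.

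In the 152 to 218 min window VBA1, a vacuolar transporter of basic amino acids, was at 0.0325 at 0 min and above 4 at 176, 194 and 227 min, where its values were 4.28, 4.38 and 4.12. The sample between them, at 218 min, was at 2.52. Its fitted range was 4.06 (limma adjusted p = 0.0349), called in 7 of 18 fits. SES1, seryl-tRNA synthetase, was highest at 176 min, at 0.996, and its call held in 2 of 18 fits.

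HPF1 and 3 other genes rose late. HPF1 (YOL155C), a wall mannoprotein, was at -0.0561 at 0 min, 0.503 at 87 min, 4.70 at 176 min, 1.26 at 218 min and 6.35 at 345 min (fitted range 6.23, limma adjusted p = 0.00111). CSS1 (YIL169C), a secreted relative, was at -0.0571 at 0 min, 5.33 at 176 min, 1.30 at 218 min and 5.70 at 345 min. YHR214WA and YAR068W, of unknown function, were at 0.048 and 0.34 at 0 min and at 7.58 and 5.37 at 345 min. All 4 had a high at 176 min, a low at 218 min and their highest sample at 345 min.

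YHR214WA and YAR068W lie in duplicated parts of the genome and share much of their sequence, as HPF1 and CSS1 do in part, so 1 transcript could give several of these signals. HPF1, YHR214WA and YAR068W were called in 18 of 18 fits with a time left out and CSS1 in 12. Their curves had r of 0.708 to 0.835 with the S. cerevisiae mean. In S. cerevisiae the mean of HPF1 went from 0.732 at 0 min to 3.69 at 345 min.

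DAL5, a permease for allantoate made when good nitrogen is short, was at -0.312 at 0 min and 5.09 at 260 min (fitted range 4.69, limma adjusted p = 0.0152). It was the 1 of 14 nitrogen-repressed genes that varied, against 0.859% of all genes. ZRT1, the high-affinity zinc transporter, was at 1.74 at 0 min, 0.355 at 63 min and 4.42 at 260 min, and stayed above 3 to the end. Its fitted range was 3.37 (limma adjusted p = 0.00111), and r with the S. cerevisiae mean was 0.834. DPM1, which makes the mannose donor for glycosylation, was highest at 345 min, at 1.52. At 345 min DAL5 was back at 2.00, while ZRT1 and DPM1 stayed high.

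Ribosomal protein genes contributed 4 of the 53, all late, and made up 138 of all 6172 genes. RPS18A (YDR450W), of the small subunit, was at -0.346 at 0 min, 3.68 at 227 min and 0.723 at 345 min (fitted range 3.86, limma adjusted p = 0.00846). RPL43B, RPL28 and RPS1A had fitted ranges of 3.50, 2.95 and 2.02. Each of the 4 had its lowest sample at 0 min and its highest between 227 and 301 min. Most such genes have a near-identical copy, whose probe could read both. RPS18B, the copy of RPS18A, had a fitted range of 1.12 and did not pass (limma adjusted p = 0.889). Of 27 measured large-subunit and 24 small-subunit genes in the lists, 1 and 2 varied, and 7 of each had an unadjusted p under 0.05, against 12.9% of all genes. The median small-subunit course went from -0.472 at 24 min to 0.662 at 251 min.

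**Figure D3:**
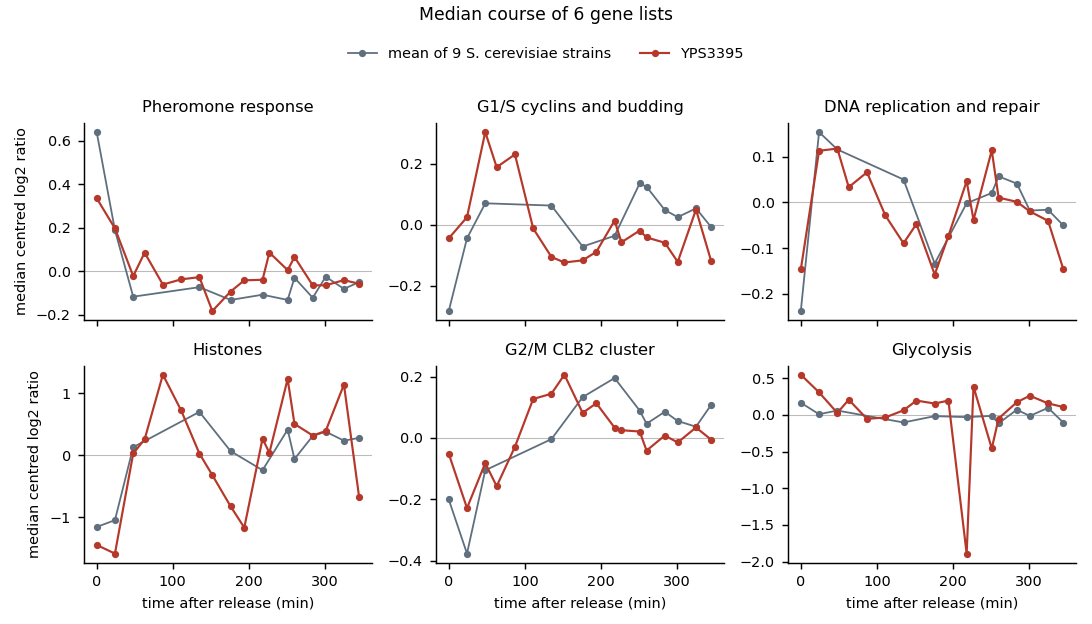
Median over list members of the log2 ratio centred on each gene's own mean, against time after release (min), for 6 gene lists in YPS3395 (red, 18 times) and for the mean of the 9 S. cerevisiae strains (grey, 12 shared times). The histone median is at 1.30 at 87 min and 1.23 at 251 min, and the glycolysis median drops to -1.89 in the 218 min sample; the vertical scales differ between panels.

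The next comparison asked where the curve of YPS3395, with each strain's level removed, departed from the mean of the 9 S. cerevisiae strains. At the 12 shared times 169 of 6172 genes differed in shape in limma (2.74%). The test was a moderated F-test of the interaction between species and a spline of time. A call needed an adjusted p under 0.05 and a centred deviation of at least 1. Samples were the units and YPS3395 gave 1 culture. These p-values thus do not cover the spread between cultures or between S. paradoxus strains. The adjusted p belongs to the whole curve, and the deviation at a single time printed beside it was not tested. The largest deviation was above the S. cerevisiae mean in 92 and below in 77. YPS3395 lay further from the mean of the rest than any other strain did in 161 of the 169 (95.3%), against 12.9% of all genes, a count that the call itself favours. Only 18 of the 169 were among the 53 that varied within the strain.

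Many of these calls rest on few samples. The largest deviation fell at 218 min in 53 genes and at 251 min in 35, together 52.1% of the 169 against 21.9% of all genes. When the time of its own largest deviation was left out, 54 of the 169 were still called, and with 218 and 251 min both left out 85 genes were called in all. The 218 min sample rests on 1 array and 251 min resembles it. What part the arrays have in these deviations was not tested.

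Glycolysis is the breakdown of glucose, which yeast ferments to ethanol. Of 18 measured glycolytic and fermentation genes 10 differed in shape (2.74% of all genes did), 2 above and 8 below. Within the strain 0 varied in limma, and 4 had an unadjusted p under 0.05, against 12.9% of all genes. With scatter shared by 10 strains 10 varied, against 313 of all 6172 genes. ENO2 (YHR174W), the main enolase, was at 0.139 at 0 min, -6.78 at 111 min, -0.204 at 176 min, -4.99 at 218 min, -0.633 at 227 min and -4.65 at 251 min. In the 9 S. cerevisiae strains its mean stayed between -0.59 and 0.0747 at the shared times. Its low samples thus alternated with samples at the S. cerevisiae level, and the centred deviation at 218 min was -3.76 (whole curve, limma adjusted p = 5.04e-06).

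PGK1 (YCR012W), phosphoglycerate kinase, was at -0.467 at 0 min, -3.35 at 63 min, 0.808 at 111 min, -0.058 at 176 min, -4.72 at 218 min and -0.613 at 345 min. Its S. cerevisiae mean lay between -0.857 and -0.341. It deviated most at 218 min too, by -2.73 (whole curve, limma adjusted p = 3.2e-05, and 3.36e-05 without 218 min). PDC5, a pyruvate decarboxylase, was at -4.19 at 218 min, between -1.74 and 0.7 at all other times, and at 0.532 in the next sample at 227 min. TDH1, a glyceraldehyde phosphate dehydrogenase, was at -3.03 at 218 min and between -0.82 and 0.0109 otherwise, so in PDC5 and TDH1 the difference lies in 1 sample.

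CDC19, pyruvate kinase, was lowest in another sample, at -3.91 at 251 min, and at -0.561 at 218 min. The remaining 3 below were PDC1, TDH2 and PFK2, all with the largest deviation at 218 min. Without 218 min these 3 were no longer called (limma adjusted p = 0.13, 0.489 and 0.138). The 2 above were GPM1, phosphoglycerate mutase, and ENO1, the other enolase. GPM1 was at 4.397 at 0 min, -1.77 at 63 min, -3.61 at 218 min and -2.82 at 345 min. Its deviation at 0 min was 3.85 (whole curve, limma adjusted p = 0.000773). ENO1 was at 0.0537 at 0 min and between -5.89 and -0.416 afterwards, while its S. cerevisiae mean stayed between -0.783 and -0.0108.

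ENO1 therefore lay near the S. cerevisiae mean at 0 min and below it later. Its deviation at 0 min was 2.53 (whole curve, limma adjusted p = 3.57e-09). ENO1 and ENO2 are close in sequence, as are TDH1 and TDH2, and probes may read both. Over the 18 genes the median course dropped to -1.89 at 218 min and was at 0.383 at 227 min. The width of that course, 2.44, was above that of all 9 S. cerevisiae strains, which ran from 0.494 to 1.06. HXT7, a high-affinity hexose transporter nearly identical to HXT6, swung between neighbouring samples: 6.35 at 194 min, -1.80 at 218 min, 3.96 at 227 min, -0.0535 at 251 min and 6.49 at 284 min.

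HXT7 passed for shape with a deviation of 4.49 at 284 min (limma adjusted p = 0.00557) and did not pass for variation over time, with an adjusted p of 0.831 and a fitted range of 5.22. It was the 1 of 11 hexose transport genes to differ in shape, against 2.74% of all genes. Among 30 respiratory genes 3 differed, all below: ATP1 and ATP2, subunits of the mitochondrial ATP synthase, with -2.17 and -3.06 at 218 min, and QCR2 of complex III, with -1.37 at 251 min. At an unadjusted p under 0.05 the respiratory list held 4 of 30, against 14.1% of all genes. ATP2 was at 1.75 at 24 min and -3.08 at 218 min, its S. cerevisiae level averaging 1.07.

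The translation machinery deviated in both directions. RPP0 (YLR340W), the stalk protein P0 of the large ribosomal subunit, was at 2.27 at 87 min, -4.31 at 111 min, 1.48 at 176 min, -3.40 at 218 min, -0.391 at 227 min, -4.77 at 251 min and -3.56 at 260 min. Its S. cerevisiae mean stayed between -0.042 and 0.84, and the deviation at 251 min was -3.92 (whole curve, limma adjusted p = 4.65e-15). TEF1, the elongation factor EF-1 alpha, was at 1.25 at 0 min, -4.22 at 176 min, -3.88 at 218 min and -0.0118 at 227 min, with a deviation of -3.25 at 176 min. Both genes had higher samples between their lows. SSB1, a ribosome-bound chaperone with a near-identical copy, was at -3.17 at 218 min and between -1.54 and 1.07 at the other times.

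In the ribosomal protein lists 5 of 27 large-subunit genes differed in shape (3 above and 2 below) and 5 of 24 small-subunit genes (4 above and 1 below). RPL10, RPS3, RPS1A and RPS6A all deviated upward at 251 min, by 2.13, 1.75, 1.40 and 1.499. RPS12 did so at 284 min, by 2.23, RPL28 at 301 min, by 1.84, and RPL20A at 325 min, by 1.43. RPS18A lay below at 0 min, with a centred deviation of -1.83. Counted by symbol over all 138 ribosomal protein genes measured, 13 were among the 92 above and 5 among the 77 below, where 169 of all 6172 genes (2.74%) differed. That count was chosen after the values were seen.

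Among the largest deviations, those of ERG4, VRG4 and CWP2 lay at 176 min. ERG4 (YGL012W), the last enzyme of ergosterol synthesis, was at -1.08 at 24 min, 2.95 at 111 min, 0.37 at 152 min, 3.98 at 176 min and 0.634 at 345 min. Its deviation at 176 min was 3.15 (whole curve, limma adjusted p = 0.000845). VRG4, which carries GDP-mannose into the Golgi, was at -0.966 at 0 min, 6.02 at 111 min, 1.06 at 152 min and 4.19 at 176 min. CWP2, a wall mannoprotein, was at -0.0367 at 0 min, 3.32 at 176 min, 3.15 at 227 min and 0.197 at 251 min, and it did not pass without 176 min (limma adjusted p = 0.465). All 3 were high in the 176 min sample, which had the widest spread over genes of all 18 (SD 0.934).

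At 176 min 18 of the 19 called genes with their largest deviation there lay above S. cerevisiae, against 92 of all 169 called. Over all genes 719 had their largest deviation at 176 min, and their direction was not counted. YNL190W, of the cell wall, was at 2.46 at 176 min and -2.57 at 218 min. UTH1 deviated at 24 min, by 2.80, where it was at 3.79 against a S. cerevisiae mean of 0.919. YLR162W, of unknown function, was at -5.27 at 111 min and deviated at 260 min by -2.85, with an S. cerevisiae level of -0.88.

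Some large deviations were a single point. NGL2, an RNA-processing nuclease, was at 5.19 at 251 min, 2.81 at 227 min and between -0.373 and 2.12 otherwise. Of the 19 genes named for the largest deviations, 10 were no longer called without the time of that deviation: NGL2, PDC5, GPM1, CDC19, TDH1, SSB1, CWP2, ATP2, YNL190W and YLR162W. The other 9 were still called: RPP0, TEF1, ENO1, ENO2, PGK1, HXT7, ERG4, VRG4 and UTH1.

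**Figure D4:**
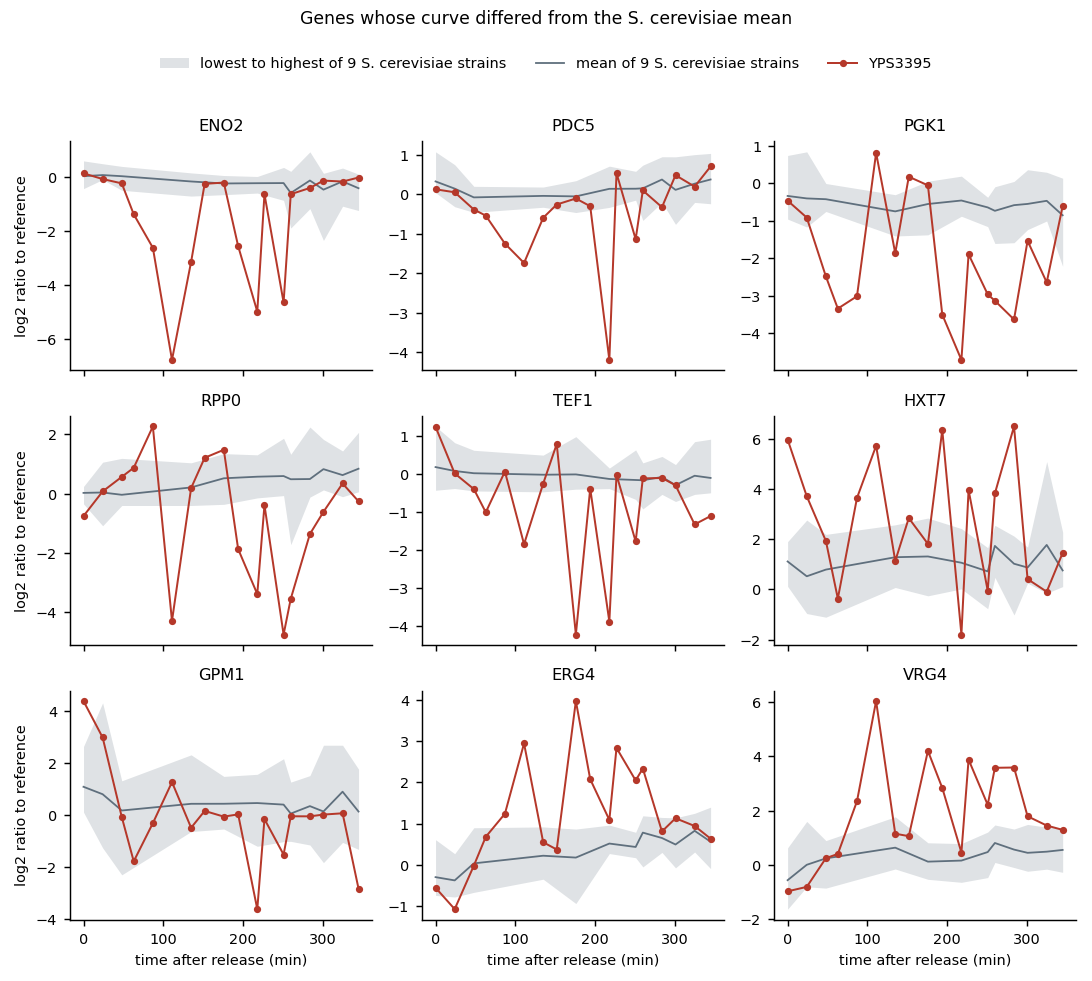
Log2 ratios of 9 genes against time after release (min) in YPS3395 (red, 18 samples), with the mean (grey line) and the lowest to highest value (grey band) of the 9 S. cerevisiae strains at the 12 shared times. ENO2, RPP0 and TEF1 swing between the S. cerevisiae level and lows of -6.78, -4.77 and -4.22, and VRG4 stands at 6.02 at 111 min; the vertical scales differ between panels.

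The methionine and sulfate list was highest at 24 min. The median course of the 23 measured genes was 0.754 above their means at 24 min in YPS3395, and the median deviation from S. cerevisiae there was 1.07. SAM1 and CYS3, which makes cysteine, differed in shape, with deviations of 2.20 and 1.38 at 24 min (limma adjusted p = 0.00108 and 6.04e-05). For SAM1 the S. cerevisiae level over the 12 times was higher, at 1.54 against 0.502. In the list 1 gene varied, 2 differed in shape and 3 were lower in level (MET10, SUL2 and SAM1). Over all genes the shares were 0.859%, 2.74% and 0.745%.

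The cell cycle lists held no shape call in limma: 0 genes in each of the G1/S budding, replication, histone, spindle, G2/M, daughter-separation and early cell cycle box lists. At an unadjusted p under 0.05 they held 4 of 22, 3 of 33, 2 of 10, 4 of 22, 2 of 22, 0 of 19 and 1 of 10, against 14.1% of all genes. The largest median deviation among them was 0.986 for histones, at 325 min. Of the pheromone-response genes 1 of 25 differed (2.74% of all genes did), PRM10, above by 1.79 at 0 min (whole curve, limma adjusted p = 0.0452). The course was narrower in YPS3395 than in every S. cerevisiae strain in 9 of the 22 lists with more than 1 member, among them replication (0.276 against at least 0.456), stress (0.31 against at least 0.449) and iron uptake (0.371 against at least 0.436). Glycolysis was the 1 list with a wider course than in all 9. Widths of median courses carry no test here.

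A stricter comparison took 1 value per strain for each of 5 time windows, so that the 9 S. cerevisiae strains were the replicates. Of 30860 gene and window pairs 46 differed (0.149%) by limma with an adjusted p under 0.05 and a size of at least 1, in 40 genes, 35 of which also differed in shape. The window from 218 to 260 min held 29 of them, 6 higher and 23 lower in YPS3395. The 0 min window held 10, 8 of them higher, the 135 to 176 min window 6, the 24 to 48 min window 1 and the 284 to 345 min window 0. In that last window 270 genes had an unadjusted p under 0.05. In 26 of the 46 the call held with each S. cerevisiae strain left out in turn.

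Relative to its own mean, RPP0 was lower at 218 to 260 min, with a difference of -3.02 ± 0.27 (SE, 1 strain against 9, limma adjusted p = 0.00167). ENO2 differed by -2.08 ± 0.21 and ENO1 by -1.62 ± 0.21 (limma adjusted p = 0.00429 and 0.00996). PAB1, the poly(A)-binding protein, differed by -1.88 ± 0.26, and SED1, a major wall protein, by -1.78 ± 0.22. RPL10, RPL42B and RPS3 were higher, by 1.01, 1.03 and 1.22. Without the 218 min sample all 29 pairs kept their sign and 15 were called, RPP0, ENO1, PAB1, SED1, RPL10 and RPL42B among them. ENO2 was no longer called without 218 min, with a difference of -1.58 (limma adjusted p = 0.051), and without 218 and 251 min its difference turned to 0.24. Without 218 and 251 min no pair was called in any window (0 pairs, with 1985 at an unadjusted p under 0.05).

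PAB1 was also the 1 gene of the 24 to 48 min window, where it was higher by 1.76 ± 0.21 (limma adjusted p = 0.00816). It was at 0.736 at 0 min, 2.22 at 24 min, -2.01 at 218 min and -1.93 at 251 min. SHM2, a serine hydroxymethyltransferase of one-carbon metabolism, was higher at 0 min by 2.16 ± 0.34 and lower at 218 to 260 min, with a difference of -1.56 ± 0.22. In YPS3395 it fell from -0.249 at 0 min to -3.98 at 260 min. PAB1, PMT1, PDI1 and the other window genes beyond those in the lists were named after their values were seen.

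MIP6 (YHR015W), an RNA-binding protein, was higher at 0 min by 1.30 ± 0.15 (limma adjusted p = 0.00816) and was at 1.74 at 0 min with a median of 0.123. It varied in time, differed in shape and passed in the 0 min window. ASC1, a ribosome-bound scaffold protein, was lower at 0 min, with a difference of -1.22 ± 0.19, and higher at 135 to 176 min by 2.26 ± 0.33. PMT1 and PMT2, which begin protein mannosylation, and PDI1, which forms disulfide bonds in the endoplasmic reticulum, were lower at 218 to 260 min, with differences of -1.05, -1.15 and -1.19. Across genes, the centred deviation at 0 min ran against the level of YPS3395 itself (r = -0.446 over 6172 genes). Level here is the strain's own mean over the shared times, not its difference from S. cerevisiae. This went alongside the narrow spread of the 0 min sample.

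Levels, the mean log2 ratio over the 12 shared times, were compared last. The arrays were designed for S. cerevisiae and the reference is S. cerevisiae RNA, so a difference in transcript amount, in the match of probe to transcript, between the species and between this strain and others cannot be told apart. By limma on 1 mean per strain 23 genes were higher in YPS3395 (0.373%) and 46 lower (0.745%), and 38 of the 69 held with each S. cerevisiae strain left out in turn. YPS3395 lay outside the range of the 9 strains in all 69, a count that the call itself favours, and in 32.8% of all genes. The median difference over all genes was 0.0116.

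CIT2, the peroxisomal citrate synthase that is switched on when mitochondria signal a shortage, showed the largest difference. It was at 0.314 in YPS3395 and at 3.32 ± 0.49 (SD, n = 9 strains) in S. cerevisiae, a difference of -3.01 ± 0.46 (SE, limma adjusted p = 0.0107). The lowest S. cerevisiae strain was at 2.65, and no YPS3395 sample was above 0.749. ENO1 was at -2.86 against -0.39 ± 0.24 and FAS1, a fatty acid synthase subunit, at -2.06 against 0.30 ± 0.31.

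VOA1, an assembly factor of the vacuolar proton pump, was at -2.62 against -0.35 ± 0.23. SIM1, SCW4 and SRL1, all linked to the cell wall, were lower, with differences of -2.22, -2.13 and -2.02. COX6, of cytochrome c oxidase, was at -0.926 against 1.02 ± 0.44. In these 8 genes YPS3395 lay below all 9 strains, and limma adjusted p-values ran from 0.00143 for ENO1 to 0.0499 for SCW4. SCW4 is thus near the threshold.

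Among the 23 higher genes were 8 ribosomal protein genes, of 138 measured, and 1 of the 46 lower ones was RPL2A. Over all genes 0.373% were higher and 0.745% lower. Counting ribosomal protein genes here was chosen after the values were seen. RPS18B was at 2.40 against 0.71 ± 0.22, a difference of 1.69 ± 0.22 (SE, limma adjusted p = 0.0064). RPL7A and RPL33A were higher by 1.54 and 1.46. The median level difference was 0.627 for the 27 large-subunit and 0.438 for the 24 small-subunit genes of the lists. The reference culture grew in rich medium, and all 10 strains share it.

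PMP2, a small regulator of the plasma membrane proton pump, was at 1.64 against 0.09 ± 0.25, and its partner PMP1 was higher by 1.07. PRY2, a secreted sterol-binding protein, was at 0.934 against -0.50 ± 0.20. ARO9, an aminotransferase of aromatic amino acid breakdown, was at -0.701 against -2.05 ± 0.27, and ARO10, which acts next, was higher by 1.25 (named after its values were seen). MTD1, of one-carbon metabolism, was at -0.126 against -1.43 ± 0.22. AGA2, the binding subunit of the a-cell agglutinin, was higher by 1.16 (limma adjusted p = 0.0409) and AGA1 by 1.02, which did not pass (0.129).

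RNR1 was lower, at -1.22 against 0.08 ± 0.20, a difference of -1.30 ± 0.20 (SE, limma adjusted p = 0.0107). In the amino acid synthesis list 4 genes were lower in level (CPA1, LYS4, LEU4 and ILV5) and 1, HIS1, higher, of 31 measured. Over all genes 0.745% were lower and 0.373% higher. Median level differences were -0.551 for that list and -0.648 for methionine and sulfate genes. Of the 18 glycolysis genes 3 were lower (0.745% of all genes were), ENO1, PGK1 and ENO2, with a list median of -0.511. For ENO1, ENO2 and PGK1 the level and the swings within the course come from the same samples.

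**Figure D5:**
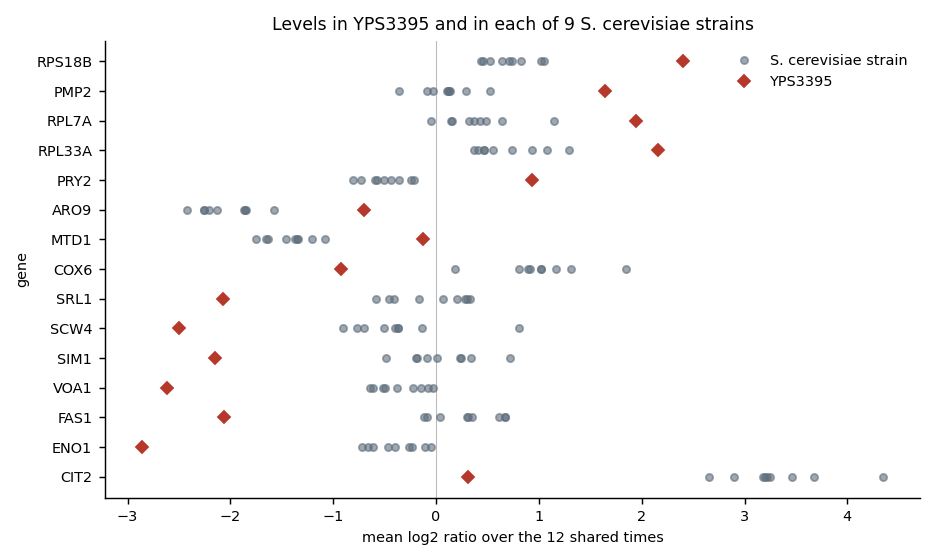
Mean log2 ratio over the 12 shared times (horizontal axis) of 7 of the highest and 8 of the lowest called genes (rows) in YPS3395 (red diamonds) and in each of the 9 S. cerevisiae strains (grey circles). YPS3395 lies outside the 9 strains in every row, with CIT2 at 0.314 against 2.65 to 4.35.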

How the data were processed

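The authors deposited 1 column per sample, with dye-swapped arrays already combined, per the labels. These deposited values were treated as log2 ratios; their base, direction (likely sample over reference, since AGA1 was high at 0 min) and normalization are not given in the sources used here. YPS3395 medians ran from -0.0123 to 0.0274, and single values from -10.16 to 7.583. Columns of the table that match no sample (7) were not used. Of the identifiers 5554 matched the RefSeq table of R64 directly and 192 after restoring a hyphen. The array's genome build is not given, so no positions are printed.

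R 4.3.3 and limma 3.58.1 gave the time, shape, window and level tests. Their p-values were adjusted by Benjamini-Hochberg over all 6172 genes (over genes and windows for the windows), with a threshold of 0.05 and a size of at least 1. Strain was an intercept in the shape test. Scatter for the time test came from YPS3395 alone. Fits were tested on simulated data. Alternatives changed the scatter, the spline (7 degrees of freedom), normalization, print years, sampling sets and samples left out. Figures used matplotlib.

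Members, gene lists and tests were chosen with earlier results of these data known. The rule names the 6 widest fitted ranges per peak window, landmark genes, the 10 largest shape deviations each way, the 8 highest and 8 lowest levels, and up to 6 genes per list by range. Genes withheld from this text are not reported here. Other genes were named after their values were seen.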

Additional observations from a re-analysis of the deposited data

Results flagged for a closer look

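The curves of YPS3395 and the 9 S. cerevisiae strains, taken from the same release, differed by a test of the difference itself in 169 genes for shape and in 46 gene and window pairs. The 19 genes named below were among those with the largest centred deviations from the S. cerevisiae mean, 9 above it and 10 below. Above it were NGL2 (4.377) at 251 min, HXT7 (4.488) at 284 min, and GPM1 (3.849) and ENO1 (2.528) at 0 min. At 176 min ERG4 (3.147), VRG4 (2.883), YNL190W (2.688) and CWP2 (2.523) were above it, and UTH1 (2.801) at 24 min. Below it at 218 min were ENO2 (-3.756), PDC5 (-3.743), ATP2 (-3.062), SSB1 (-2.786), PGK1 (-2.73) and TDH1 (-2.492). RPP0 (-3.924) and CDC19 (-3.202) were below it at 251 min, TEF1 (-3.254) at 176 min and YLR162W (-2.851) at 260 min. The 218 min sample rests on 1 array, and its part in these values was not tested.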

How the results depend on the processing

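The 53 varying genes became 313 with scatter shared by 10 strains (41 of the 53 among them), 157 after quantile normalization (52 among them) and 134 with each sample divided by its spread (53 among them). Leaving out 1 time gave 27 to 82: 82 without 0 min, 34 without 48 or 87 min, 31 without 227 min, 27 without 251, 260 or 284 min and 35 without 301 min. Between 39 and 52 of the 53 kept their peak window when 1 time was left out. The 169 shape calls became 267 with time as a factor, 270 after quantile normalization, 293 against 5 strains with no known older array prints, 85 without 218 and 251 min, 54 without the time of each gene's own largest deviation, and 136 to 201 with 1 strain left out. The 46 window pairs became 73 after quantile normalization, 79 against those 5 strains, 0 without 218 and 251 min, and 31 to 72 with 1 strain left out (70 without YPS2067, 72 without YPS2073). With 218 and 251 min left out, the window differences at 218 to 260 min reversed to 0.2398 for ENO2 and 0.07952 for PDC5. Higher and lower levels numbered 13 and 29 in sampling set B alone (alternate times) and 101 and 126 against the 5 strains. With 1 strain left out the higher genes ran from 12 to 55 (55 without YPS2073, 13 without YPS2055, YPS2066 or YPS2067, 15 without YPS2060, 12 without YPS2079 or YPS3060) and the lower from 30 to 72 (72 without YPS183, 30 without YPS2079). The causes were not tested. Leaving out 0 and 63 min, 218 and 251 min or each gene's own time, and division by the spread, were chosen after seeing the data. Other settings kept the counts within 1.5 times. No paired analysis was possible because the labels number no replicates: the numbers used here follow accession order, name a sample only and do not mark the same time in every strain. With 1 culture of YPS3395 and 1 array at 218 min, differences between cultures cannot be judged.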
